A study of Mus musculus with 10 samples.

Results

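The N-methyl-D-aspartate (NMDA) receptor subunits Grin1, Grin2a, Grin2b, Grin2c, Grin2d and Grin3a were followed in the hippocampus of adult, male-labelled ICR mice (an outbred stock) whose mothers had or had not been given an estrogen. The members were chosen by symbol, and all non-control probes with one of these 6 gene names in the scanner files were taken, 13 of 41174 probes. The genes are 6 of the 20066 that could be tested. In the high estradiol group (HE, 5 arrays), the mothers had been given estradiol valerate, an ester that releases estradiol, by mouth in corn oil at 100 µg/kg/day between E5.5 and E11.5 of the pregnancy. In the control group (NC, 5 arrays), the mothers had been given corn oil alone. The offspring themselves carried no transgene or treatment named in the labels, and each array held the RNA of 1 animal. Litters are not given in the labels, and the p-values therefore cover no more than the variation among the 10 animals.

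NMDA receptors are glutamate-gated cation channels built from several subunits around one pore. The Grin1 product is present in every NMDA receptor and binds the co-agonist glycine or D-serine, the Grin2 products bind glutamate and set the opening time and the scaffold contacts, and the Grin3 products bind glycine and lower calcium entry. In the forebrain, Grin2b dominates early in life and Grin2a is added as synapses mature, and the channel opens only when glutamate release meets a depolarised membrane, which makes it a trigger of synaptic plasticity.

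Each probe was a 60-base oligonucleotide on the minus strand of mm9, and what is measured is the brightness of labelled RNA bound to that stretch, so each gene is seen through 1 to 5 short windows. No gene annotation of mm9 was used here, so exons and introns are not assigned. Of the sequences printed below, the Grin1 probe at chr2:25151568-25151627 is shown because it is the only window on the obligatory subunit. The Grin2b probes A_51_P265765, for which the files give 11 bases at chr6:135679813-135679823, and A_52_P248920 at chr6:135682925-135682984 are the Grin2b windows that were called higher in HE. The Grin2d probe at chr7:53088243-53088302 is shown for its base composition, 81.7% G or C with 11 CG dinucleotides, where the median probe of the array had 40.0% and 0.0073% of probes were as rich or richer.
Grin1 A_52_P69292: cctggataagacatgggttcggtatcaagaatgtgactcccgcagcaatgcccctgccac
Grin2b A_51_P265765: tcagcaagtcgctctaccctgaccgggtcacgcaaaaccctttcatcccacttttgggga
Grin2b A_52_P248920: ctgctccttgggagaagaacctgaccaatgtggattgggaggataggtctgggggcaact
Grin2d A_51_P157154: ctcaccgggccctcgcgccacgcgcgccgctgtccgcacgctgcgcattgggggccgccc

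The 75th percentile of the processed signal lay between 898 and 1277 units across the arrays, 70.3% to 78.8% of probes were well above background, and the number of arrays limits the precision. HE arrays lay on slide 2 (HE 1, HE 2) and slide 3 (HE 3, HE 4, HE 5), and NC arrays on slide 1 (4 arrays) and slide 2 (NC 5), so that the groups meet on slide 2 alone. Xist, the RNA of the inactive X chromosome, was high and the Y-linked Ddx3y was low on 7 of the 10 arrays (HE 1 to HE 3 and NC 1 to NC 4), against the male label, whereas HE 4, HE 5 and NC 5 matched it. Liver transcripts were raised on NC 1, NC 2 and NC 4, where Alb stood at 0.50, 0.48 and -0.20. NC 5 was not free of them: Alb was -4.80 there, but Apoa2 was -2.27, near the -2.43 of NC 4. On every array the hippocampal markers Wfs1, of CA1 pyramidal cells, and Prox1, of dentate granule cells, were well above background.

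All levels below are log2 signals relative to the array's own 75th percentile, and each level belongs to 1 probe. Levels of different probes were set against each other only in Grin2a minus Grin2b and in naming probes bright or dim. The HE mean lay above the NC mean at the Grin1, Grin2b, Grin2c and Grin2d probes and the downstream Grin2a probe, and below it at the upstream Grin2a probe and both tested Grin3a probes, a sign that turned with normexp for Grin2d and Grin2b A_52_P367017 and with normexp centred on the median probe for Grin3a A_52_P531731. Of the 12 probes that entered the test, 3 passed an adjusted p of 0.05 in limma: 2 Grin2b probes higher and 1 dim Grin3a probe lower in HE. That is 25% of the member probes, against a background of 23.2% of all 30978 probes tested (7.71% higher and 15.5% lower in HE), so the count itself says nothing particular about these genes. The Grin3a probe entered only through NC, the group in which it was higher, so that its call and its lack of overlap support nothing about the members. The groups did not overlap at 2 of the 12 probes, 1 in each direction, against 17.4% of all probes (6.22% with HE above NC and 11.2% with HE below). The median difference was 0.19 over the 12 member probes and -0.05 over all probes.

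**Figure D1:**
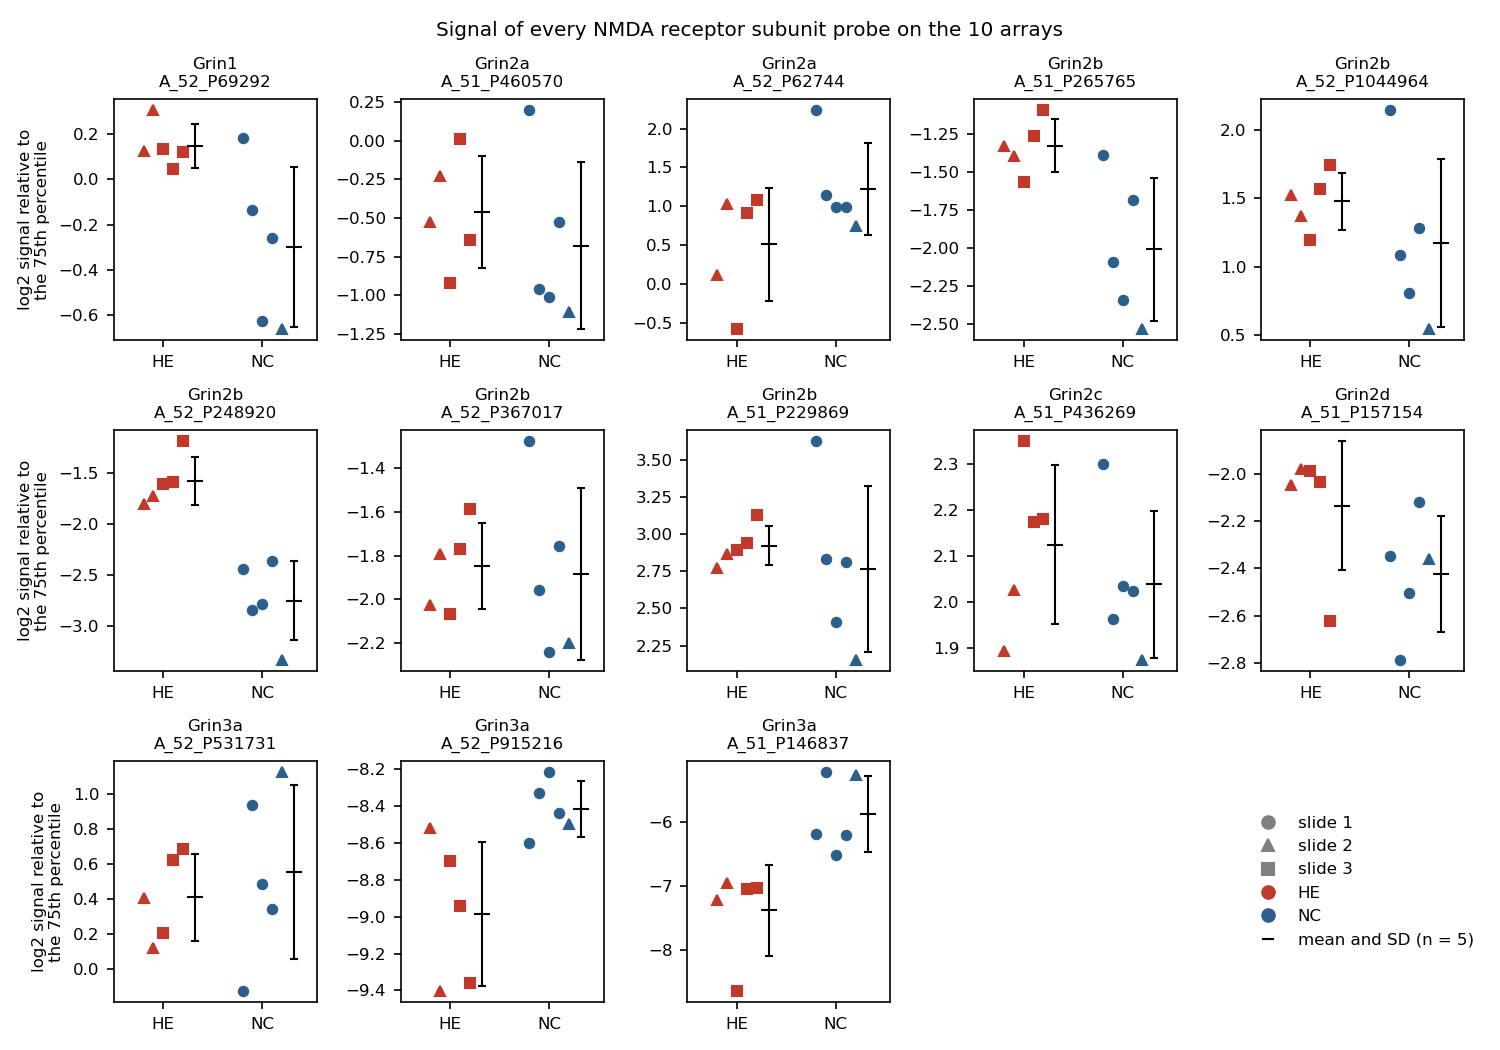
Log2 signal relative to the array's 75th percentile (y axis, a scale of its own in each panel) of all 13 probes on the 5 HE arrays (red, left) and the 5 NC arrays (blue, right), with marker shapes for the 3 slides and bars for the mean and SD (n = 5). HE and NC points separate fully at Grin2b A_52_P248920 and Grin3a A_51_P146837, and NC 1 is the top NC point in 7 of the 8 panels of Grin1, Grin2a and Grin2b.

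Grin1, the obligatory subunit, was read by 1 probe. Its level was 0.12, 0.31, 0.14, 0.05 and 0.12 on HE 1 to HE 5, and 0.18, -0.14, -0.63, -0.26 and -0.67 on NC 1 to NC 5. The HE arrays lay close together and above 4 of the 5 NC arrays, with NC 1 inside their range. The means were 0.15 ± 0.10 in HE and -0.30 ± 0.35 in NC (SD, n = 5 each), a difference of 0.45 ± 0.16 (SE) that did not pass (limma, adjusted p = 0.0666). Without NC 1 the difference was 0.57 with an adjusted p of 0.0210, and with all arrays it also passed with both normexp settings and with the Xist pattern as a covariate. Over all 26 alternative settings the adjusted p ran from 0.00377 to 0.230, passing in 5.

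Grin2b, the glutamate-binding subunit that dominates early receptors, was read by 5 probes spread over 443 kb, a pair at the upstream end and 3 at the downstream end of the span. The downstream probe A_52_P248920 had the largest difference of the 12 probes toward HE. Its level was -1.80, -1.73, -1.61, -1.59 and -1.19 on HE 1 to HE 5, against -2.44, -2.84, -2.79, -2.36 and -3.34 on NC 1 to NC 5. Each of the 5 HE arrays was above each NC array. The means of -1.58 ± 0.24 in HE and -2.76 ± 0.39 in NC differed by 1.17 ± 0.19 (SE), which is 2.25-fold higher in HE (limma, adjusted p = 0.00748). Leaving out any 1 array kept the call, with differences of 1.03 to 1.27, and the difference was 0.90 among the 7 arrays with high Xist (adjusted p = 0.0635). With normexp background correction the difference was 0.33 (adjusted p = 0.396), where the median of all probes was -0.42. Over the 26 alternatives its adjusted p ran from 0.00518 to 0.396, passing in 22.

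Further downstream, the Grin2b probe A_51_P265765 also passed the test. HE 1 to HE 5 gave -1.33, -1.39, -1.56, -1.26 and -1.09, and NC 1 to NC 5 gave -1.39, -2.09, -2.34, -1.69 and -2.54. The groups overlapped, since NC 1 lay among the HE arrays, and 3 of the 5 HE arrays were above every NC array. The means of -1.33 ± 0.17 in HE and -2.01 ± 0.47 in NC differed by 0.68 ± 0.21 (SE), 1.60-fold, with an adjusted p of 0.0407 in limma. This call was close to the threshold: it passed without NC 1 and without NC 4, missed it when any 1 of the other 8 arrays was left out (adjusted p up to 0.0863), and passed in 11 of 26 alternative settings (0.0169 to 0.479).

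The other Grin2b probes did not pass. Between the called probes, A_52_P1044964 gave 1.52, 1.37, 1.19, 1.57 and 1.74 on HE 1 to HE 5, against 2.15, 1.08, 0.81, 1.29 and 0.54 on NC 1 to NC 5. NC 1 was the highest of all 10 arrays there, and the difference was 0.31 ± 0.26 (SE; limma, adjusted p = 0.425). Without NC 1 it was 0.55, with an adjusted p of 0.0478 (0.00644 to 0.960 over the 26 alternatives).

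At the upstream end, A_51_P229869 at chr6:136122961-136123020, the brightest Grin2b probe, gave 2.77, 2.87, 2.89, 2.94 and 3.13 on HE 1 to HE 5, against 3.63, 2.83, 2.41, 2.81 and 2.15 on NC 1 to NC 5. The HE arrays spanned a narrow range inside the wide NC range. The difference was 0.15 ± 0.24 (SE; limma, adjusted p = 0.666), and it was -0.07 among the 7 arrays with high Xist. Its neighbour A_52_P367017 ran from -2.07 to -1.59 in HE and from -2.24 to -1.28 in NC, a difference of 0.04 ± 0.19 (SE; adjusted p = 0.904) that was -0.31 with normexp. Whether the shifts of the upstream pair and of the downstream probes differ was not tested.

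**Figure D2:**
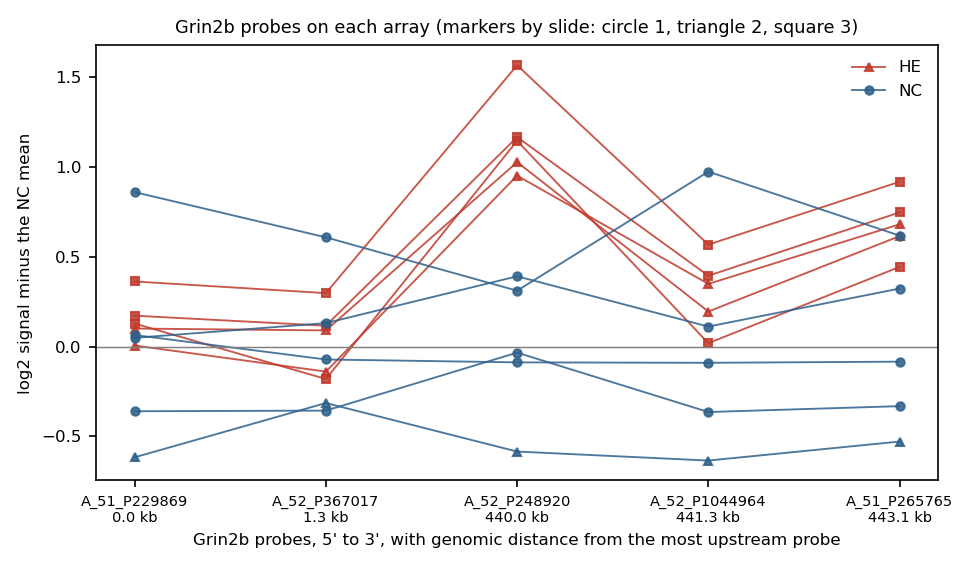
Log2 signal of the 5 Grin2b probes on each array minus the NC mean of that probe (y axis), with probes in order from upstream to downstream (x axis, labelled with kb from the most upstream probe) and 1 line per array (red HE, blue NC; circles slide 1, triangles slide 2, squares slide 3). All HE lines stand above all NC lines at the 440.0 kb probe, while at the 0.0, 1.3 and 441.3 kb probes NC 1 is above every HE line.

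Across arrays the 5 Grin2b probes moved together: Pearson's r of their deviations from the group means ran from 0.73 to 0.96 over the 10 probe pairs (10 arrays, which the probes share). Grin1 and the brightest Grin2b probe had an r of 0.90 by the same measure. Within NC the spread was wide, with NC 1 the highest NC array at 7 of the 8 Grin1, Grin2a and Grin2b probes and NC 5 the lowest at 7 of 8. The median SD over the 12 probes was 0.22 in HE and 0.48 in NC, against 0.21 in HE and 0.27 in NC over all probes. A larger SD in NC was found at 8 of the 12 member probes, and at 64.1% of all probes.

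Grin2a, the glutamate-binding subunit of mature receptors, was read by 2 probes that lie 414 kb apart and had opposite signs. The upstream probe A_52_P62744 at chr16:9991772-9991831, assigned in the files to an Ensembl transcript, gave 0.12, 1.02, -0.59, 0.91 and 1.08 on HE 1 to HE 5, and 2.24, 1.14, 0.99, 0.99 and 0.74 on NC 1 to NC 5. The HE 1 and HE 3 arrays were below all NC arrays, NC 1 was above all others, and the rest overlapped. Its means were 0.51 ± 0.72 in HE and 1.22 ± 0.59 in NC, a difference of -0.71 ± 0.37 (SE; limma, adjusted p = 0.189).

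The downstream Grin2a probe A_51_P460570 gave -0.53, -0.23, -0.92, 0.01 and -0.64 on HE 1 to HE 5, and 0.20, -0.96, -1.01, -0.52 and -1.11 on NC 1 to NC 5. The groups overlapped over most of their range. The difference was 0.22 ± 0.27 (SE; limma, adjusted p = 0.580). The probes nevertheless followed each other across arrays (r = 0.78 of deviations from the group means, 10 arrays), so neither direction is given for the gene as a whole.

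The balance of Grin2a and Grin2b, which shifts as synapses mature, was compared as the log2 signal of Grin2a A_52_P62744 minus that of Grin2b A_51_P229869, the brightest probe of each gene, on the same array. This value shows unequal change of a pair of probes and not how much of each RNA there was. It was -2.65, -1.84, -3.48, -2.02 and -2.05 on HE 1 to HE 5, against -1.39, -1.69, -1.41, -1.82 and -1.41 on NC 1 to NC 5. Each HE array was below each NC array, although HE 2 at -1.84 and NC 4 at -1.82 nearly met. The means of -2.41 ± 0.67 in HE and -1.54 ± 0.20 in NC differed by -0.87 (two-sided exact permutation test, p = 0.00794, the smallest that 5 against 5 arrays can give). With the other Grin2a probe, a choice made after seeing the data, the value was -3.38 ± 0.40 in HE and -3.45 ± 0.20 in NC, a difference of 0.06 (exact p = 0.778), so the result holds for 1 Grin2a probe only. On slide 2 alone the first difference was -0.84.

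**Figure D3:**
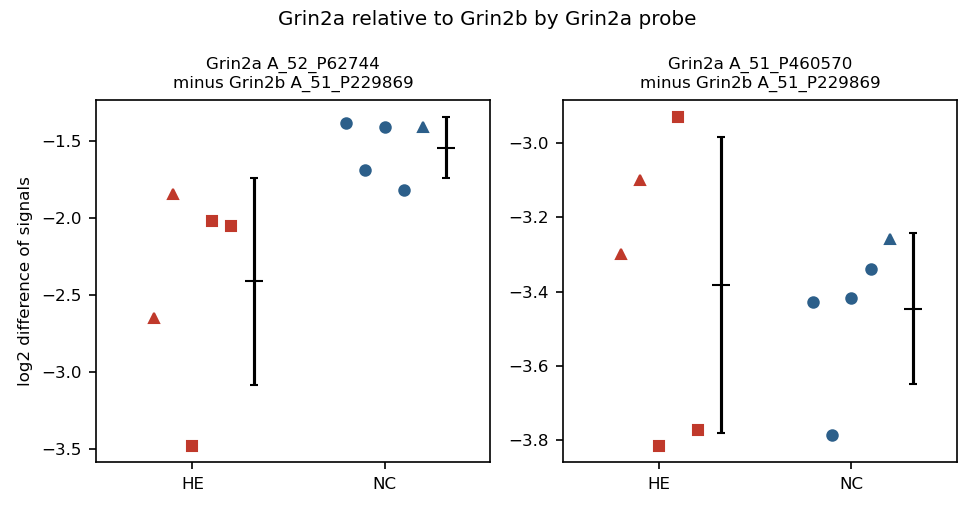
Log2 signal of a Grin2a probe minus that of Grin2b A_51_P229869 (y axis) on the 5 HE arrays (red, left) and 5 NC arrays (blue, right), for the upstream Grin2a probe in the left panel and the downstream one in the right panel; circles, triangles and squares are slides 1, 2 and 3 and bars give the mean and SD (n = 5). The groups separate in the left panel (mean -2.41 in HE, -1.54 in NC) and overlap in the right one (mean -3.38 in HE, -3.45 in NC).

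Grin2c, a glutamate-binding subunit best known from cerebellar granule cells and also found in astrocytes, was read by 1 probe at chr11:115110671-115110730. It ran from 1.89 to 2.35 with a median of 2.17 in HE, and from 1.87 to 2.30 with a median of 2.02 in NC. These ranges were nearly the same, and the difference was 0.09 ± 0.11 (SE; limma, adjusted p = 0.612). Grin2d, a subunit of early receptors and of interneurons, gave -2.05, -1.98, -1.99, -2.04 and -2.62 on HE 1 to HE 5, against -2.35, -2.79, -2.51, -2.12 and -2.36 on NC 1 to NC 5. Of the HE arrays, 4 stood above all NC arrays and HE 5 lay below all but NC 2. The difference was 0.29 ± 0.16 (SE; limma, adjusted p = 0.208), and -0.32 with normexp.

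Grin3a, the glycine-binding subunit that lowers calcium entry and marks young synapses, was read by 3 probes. The bright probe A_52_P531731 at chr4:49674688-49674747 gave 0.41, 0.12, 0.21, 0.62 and 0.69 on HE 1 to HE 5, against -0.13, 0.93, 0.48, 0.34 and 1.12 on NC 1 to NC 5. The HE values lay inside the NC range, with a difference of -0.14 ± 0.23 (SE; limma, adjusted p = 0.683) that was 0.31 with normexp centred on the median probe. NC 1 was the lowest and NC 5 the highest NC array, the opposite of Grin1.

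The Grin3a probe A_51_P146837 at chr4:49783197-49783256 was dim. It was well above background on 1 HE array and 3 NC arrays and so entered the test only through NC, and its values are given as a description. It gave -7.21, -6.95, -8.65, -7.05 and -7.03 on HE 1 to HE 5, against -6.18, -5.21, -6.52, -6.20 and -5.26 on NC 1 to NC 5. No HE array reached the lowest NC array, and the measured difference was -1.51 ± 0.37 (SE; limma, adjusted p = 0.0210), taken mostly between signals near background. Its processed signal was 2.84 to 9.77 units in HE and 12.4 to 26.5 units in NC. The call was lost without NC 2 (adjusted p = 0.0514) or without NC 5 (adjusted p = 0.0507), and the adjusted p was 0.0140 to 0.188 over 25 alternatives. The probe A_52_P915216 at chr4:49717981-49718040 was not well above background on any array and was not tested.

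Slide 2 is the one slide with both groups, HE 1 and HE 2 with high Xist and NC 5 without. There the differences were 0.88 at Grin1, 0.73 and -0.17 at the downstream and upstream Grin2a probes, 0.09 at Grin2c, 0.35 at Grin2d, and -0.86 and -1.82 at the bright and dim Grin3a probes. The Grin2b probes differed by 0.67, 0.29, 1.57, 0.91 and 1.18 from upstream to downstream. With slide as a fixed block Grin2b A_52_P248920 passed (limma, adjusted p = 0.0475), and Grin2b A_51_P265765 (adjusted p = 0.133) and the dim Grin3a probe (adjusted p = 0.188) did not. The differences in that fit are those of slide 2, with NC 5 as the only control. At A_52_P248920 NC 5 was the lowest NC array (-3.34), so this pass rests on an extreme control.

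**Figure D4:**
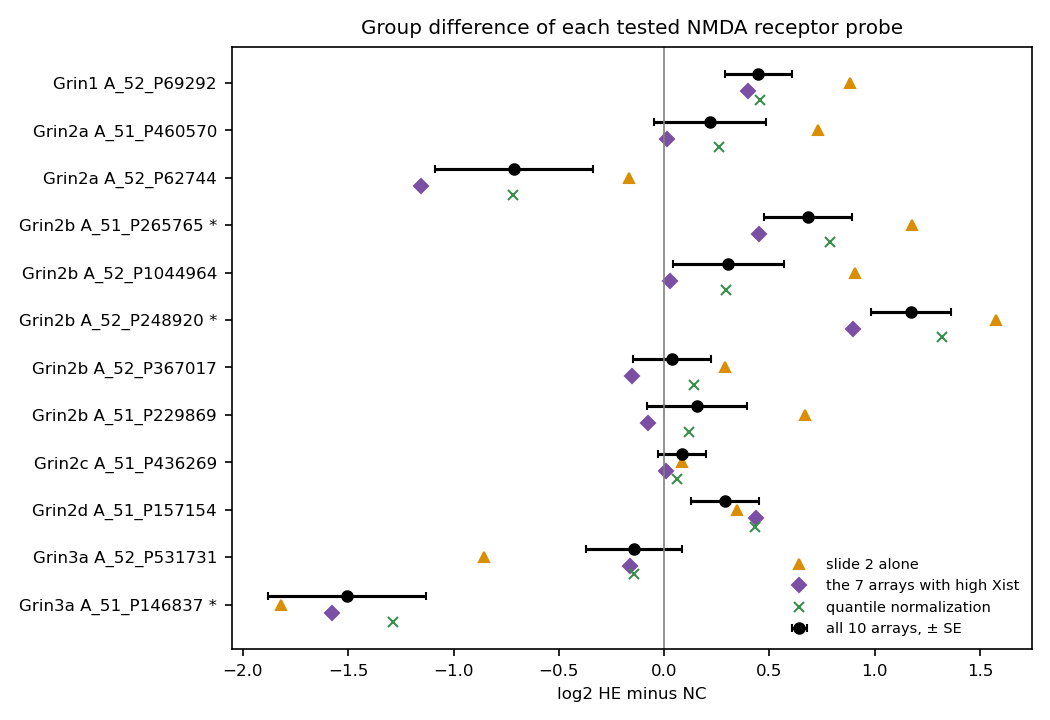
Log2 HE minus NC (x axis) of the 12 tested probes: black points with SE bars for all 10 arrays, triangles for slide 2 alone (HE 1 and HE 2 against NC 5), diamonds for the 7 arrays with high Xist, crosses for quantile normalization; an asterisk marks an adjusted p under 0.05. Grin2b A_52_P248920 lies right of 0 and Grin3a A_51_P146837 left of 0 in all 4, while Grin2b A_51_P229869 and A_52_P367017 fall left of 0 among the arrays with high Xist.

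Both other family symbols on the array passed the test, which 23.2% of all probes did, and alternative settings are not given for them. Grina, which encodes a membrane protein named after a glutamate-binding protein and is no channel subunit, was 3.60 ± 0.07 in HE and 3.02 ± 0.23 in NC, higher by 0.58 ± 0.12 (SE; limma, adjusted p = 0.0118). Grin3b, the second Grin3 subunit, known mainly from motor neurons, was -3.27 ± 0.43 in HE and -2.31 ± 0.51 in NC, lower by -0.96 ± 0.27 (SE; adjusted p = 0.0308).

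Several marker lists of cell types moved with the groups, and in bulk tissue fewer cells of a type and less RNA per cell cannot be told apart. Summed levels are linear, in multiples of the array's 75th percentile, and the counts stand against 6.48% higher and 13.9% lower over all genes tested. Pyramidal neuron markers summed to 65.5 to 91.7 in HE and 47.4 to 65.4 in NC, with 3 of 11 higher and none lower; Mpped1 differed by 0.90 and Wfs1 by 0.50 (adjusted p = 0.0347 and 0.202). Interneuron markers summed to 119.8 to 182 in HE and 94.7 to 136 in NC, with 4 of 12 higher and 2 lower. For dentate granule cell markers, 1 of 7 was higher, Calb1 (0.63, adjusted p = 0.0288), which made up most of a sum of 15.5 to 27.8 in HE and 10.9 to 13.8 in NC. Prox1 differed by -0.89 (adjusted p = 0.0526), and the list's median was 0.10.

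Calls in the other lists were to lower values in HE. Of the oligodendrocyte markers, 7 of 9 were lower, among them the myelin gene Mbp (-0.61, with 1 of its 3 probes of opposite sign). The markers' sum was 243 to 318 in HE and 430.4 to 544 in NC. Of the thalamus and habenula markers, 9 of 16 were lower and none higher, with a sum of 16.0 to 32.8 in HE and 25.1 to 65.6 in NC. Among the 9, Shox2 was well above background on 1 HE array and 5 NC arrays. It entered only through NC, the group in which it was higher, so its call is no support. Astrocyte markers were lower at 2 of 11 (sum 351 to 405 in HE, 410.0 to 490.0 in NC) and cerebellar granule markers at 1 of 7 (14.4 to 22.3 in HE, 15.3 to 27.1 in NC), shares close to that of all genes, and members such as Neurod2 (1.07, adjusted p = 0.193) had the opposite sign. Of the liver markers, 4 of 9 were lower, each well above background on at most 1 HE array. These 4 entered only through NC, the group in which they were higher, so their calls are no support. The liver sum (0.412 to 13.7 in HE, 1.54 to 19 in NC) was highest where Ttr was, a gene that the choroid plexus also makes and that differed by 0.80 (adjusted p = 0.696), while the list's median was -4.23. In each of these lists every marker was well above background on at least 1 array, apart from Fat2 of the cerebellar list. The part of these lists in the results on the receptor and its partner genes was not tested.

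Genes that anchor, modify and feed the receptor were counted in the fit with 1 probe per gene, in which 20.4% of 20066 genes passed (6.48% higher and 13.9% lower in HE) and the median difference was -0.06. No subunit gene passed in this fit, each read by its brightest probe. The adjusted p was 0.0714 for Grin1, 0.198 for Grin2a, 0.676 for Grin2b, 0.618 for Grin2c, 0.215 for Grin2d and 0.693 for Grin3a. Of 24 scaffold genes, 8 were higher and 1 lower, with a median of 0.46. By the smallest p these were led by Gipc1, a PDZ adaptor (0.93 ± 0.06 in HE, 0.44 ± 0.21 in NC, higher by 0.49, adjusted p = 0.0171), Dlg2 or PSD-93, a membrane-associated guanylate kinase (higher by 0.81, adjusted p = 0.0189, with 1 of its 3 probes of opposite sign), and by Shank2, a postsynaptic scaffold (higher by 0.79, adjusted p = 0.0211). The gene that fell was Nefl, the neurofilament light chain (-0.50, adjusted p = 0.0290), named after its value was seen. The count of higher scaffold genes was 3 without HE 1 or without NC 2, 4 without HE 2, HE 3 or HE 5, and 5 without NC 5. With slide as a fixed block 1 scaffold gene was higher, and among the 7 arrays with high Xist none was. Over all 20066 genes these settings gave 114 and 7 higher genes, and leaving out 1 array gave 566 to 1411.

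Of 29 kinases, phosphatases and calcium targets, 7 were higher and none lower, with a median of 0.32. Ppp2r1a, a subunit of protein phosphatase 2A, was 2.53 ± 0.06 in HE and 2.04 ± 0.17 in NC, higher by 0.49 (adjusted p = 0.0130). Ppp1r9b or spinophilin, which targets protein phosphatase 1 to spines, was higher by 0.74, and Ppp3r1, the regulatory subunit of calcineurin, by 0.80 (adjusted p = 0.0189 for each). The count was 4 without HE 5, 3 without NC 2 and 12 without NC 1, where 676, 566 and 1411 of all genes were higher. None of these 29 genes passed with slide as a fixed block or among the 7 arrays with high Xist. Few did over all 20066 genes: 114 higher and 91 lower with slide fixed, and 7 and 70 with high Xist.

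Of 14 genes that make, carry or break down the co-agonists glycine and D-serine, 4 were lower and 1 higher in HE, with a median of -0.25. The list mixes supply with removal, so its median and counts give no direction for the co-agonist itself. Slc7a10, a carrier of D-serine and glycine, was 1.80 ± 0.15 in HE and 2.39 ± 0.24 in NC, lower by -0.59 (adjusted p = 0.0157). The serine synthesis enzymes Psat1 (-0.41, adjusted p = 0.0184) and Phgdh (-0.40, adjusted p = 0.0189) fell too, and the 1 gene that was higher was Srr, serine racemase (0.48, adjusted p = 0.0299; 1 of its 5 probes had the opposite sign), named after its value was seen. Also named after its value was seen, the remaining lower gene was Slc6a9, a glycine uptake carrier (-0.78; limma, adjusted p = 0.0189). With slide as a fixed block none of the lower genes passed, and among the 7 arrays with high Xist no gene of the list did. Over all 20066 genes, 91 were lower with slide fixed, and 7 were higher and 70 lower with high Xist.

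Of 13 genes for glutamate supply and clearance, 2 were lower and 1 higher, with a median of -0.07. Slc17a6, the vesicular glutamate transporter of thalamic and other subcortical neurons, was 1.56 ± 0.78 in HE and 3.86 ± 0.73 in NC. It was lower by -2.30 (adjusted p = 0.0114), beside the thalamic markers of which 9 of 16 were lower, Shox2 having entered only through NC. With slide as a fixed block no gene of this list was called lower, and among the 7 arrays with high Xist 1 was. Over all 20066 genes these settings gave 91 and 70 lower genes. Slc17a8, a further vesicular glutamate transporter, was lower by -1.60 (adjusted p = 0.0180), with its other probe of opposite sign, and Slc1a1, a neuronal glutamate uptake carrier, was higher by 0.30 (adjusted p = 0.0382). Of 14 extracellular and auxiliary partners, 1 was higher and 1 lower, with a median of 0.30: Lrrc4, a postsynaptic adhesion protein, was higher by 0.70 (adjusted p = 0.0229) and Nrg1, a growth factor for ErbB receptors, lower by -0.48 (adjusted p = 0.0367). Neto2, an auxiliary subunit of kainate receptors, had a difference of 0.72 that did not pass (adjusted p = 0.0581).

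**Figure D5:**
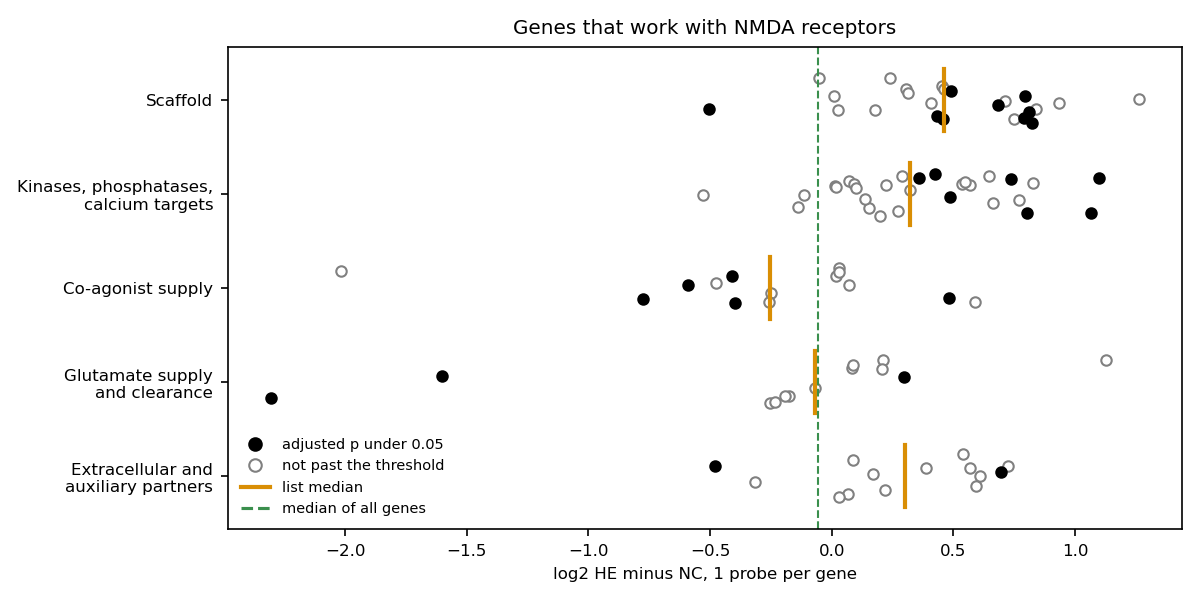
Log2 HE minus NC with 1 probe per gene (x axis) for the 5 lists of genes that work with NMDA receptors; filled points passed an adjusted p of 0.05 and open points did not, the short bar is the list's median and the dashed line the median of all genes. Scaffold genes (median 0.46) and kinases, phosphatases and calcium targets (0.32) lie mostly right of 0, while co-agonist genes (-0.25) lie on both sides of it.

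The genes whose level followed each subunit most closely over the 10 arrays were ranked among 15351 genes by Pearson's r of deviations from the group means, as a description of arrays that share slides and tissue make-up. Each gene was read by its brightest probe alone, A_52_P62744 for Grin2a, A_51_P229869 for Grin2b and A_52_P531731 for Grin3a. For Grin1 these were S1pr1 (0.98), Slco1b2 (0.97) and Scaf4 (0.97). For Grin2b they were Matk (0.98), Ppp3cb (0.97), the catalytic subunit of calcineurin, and Mef2d (0.97), a transcription factor, and for Grin2a they were Bmp1 (0.97), Hdac10 (0.96) and Wdr90 (0.96). Grin2c was followed by Mark3 (0.95), Actr3b (0.93) and Zfp239 (0.91), Grin2d by Vmn1r201 (0.94), Nrp1 (0.91) and Klf2 (0.89), and Grin3a by Czib (0.96), Calcr (0.95) and Cd1d1 (0.95).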

How the data were processed

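RNA of 10 hippocampi was read on 1-colour Cy3 Agilent arrays. Per the file headers, the scanner files hold spot intensity on a linear scale from Feature Extraction (version 10.7 per the submitters' processing notes), background-subtracted and detrended within each array. The authors deposited a value table of log2 values without stating how it was made; its columns had medians of 7.03 and followed quantile-normalized log2 processed signals, so scale and direction are known and the software is not given in the sources used here.

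Here the array's 75th percentile over 41174 non-control probes was subtracted from the log2 processed signals, outlier-marked spots (68 to 129 per array) were left out, spots of a probe averaged, and a probe entered if well above background on at least 3 of 5 arrays of a group (30978 did). No spot was saturated. HE was set against NC in R 4.3.3 by limma's lmFit and eBayes (version 3.58.1; two-sided, 10 arrays, no covariate). P-values were adjusted by Benjamini-Hochberg over the entering probes or, with each gene's brightest probe, over 20066 genes, and a threshold of 0.05. The fit was tested on simulated data. Names were updated through the RefSeq table of GRCm38.p6 (27660 probes by accession, 5595 by symbol, 470 by synonym, 7449 kept as in the files). Sequences and mm9 positions are those of the scanner files. All members were described; in each gene list the 3 genes with the smallest p were named, in marker lists up to 2 with the highest level, and for likeness the 3 with the highest r. Some items that these rules take are not reported here. Members and lists were chosen with earlier results of these data known. No 2 arrays were duplicates (SD of log2 differences within a group 0.435 to 0.704). Alternatives were slide as a block or slide 2 alone, the replicate block, normexp, quantile normalization, the value table, other filters and priors, subsets by Xist, leaving out the 3 arrays with the highest liver transcripts (NC 1, NC 2 and NC 4), and leaving out each array.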

Additional observations from a re-analysis of the deposited data

Results flagged for a closer look

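In 3 of 26 groups of 5 arrays (13 probes in each of HE and NC), 1 array stood apart from the other 4 by Dixon's test, and chance alone marks about 1 group in 20. HE 5 was the lowest HE array for Grin2d A_51_P157154, at -2.62, where the gap to its neighbour took 0.897 of the group's range. HE 3 was the lowest HE array for the dim Grin3a probe A_51_P146837, at -8.65 (0.846 of the range), a level not well above background. NC 1 was the highest NC array for Grin2a A_52_P62744, at 2.24 (0.735 of the range). Without HE 3 or NC 1 the direction of these probes was kept; leaving out single arrays gave -0.85 to -0.44 for this Grin2a probe, -1.67 to -1.19 for the Grin3a probe and 0.20 to 0.41 for Grin2d.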

How the results depend on the processing

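Grin2b A_52_P248920 passed in 22 of 26 alternatives (0.33 to 1.95), missing with normexp, on slide 2 alone and in both Xist subsets; Grin3a A_51_P146837 passed in 18 of 25. Member probes higher and lower numbered 2 and 1; they were 3 and 1 with the Xist pattern as a covariate, 1 and 0 with slide as a fixed block (in which only slide 2 carries the contrast), 1 and 1 without a filter or with normexp, 7 and 1 with normexp centred on the median probe, 2 and 0 with probes above background on all 10 arrays (the Grin3a probe is not tested there), 5 and 0 without NC 1, NC 2 and NC 4, and 1 to 4 and 0 to 1 when leaving out 1 array. On slide 2 alone, and among the arrays matching the male label (HE 4 and HE 5 against NC 5), NC was 1 array. The spread there rests on the HE arrays, so counts of calls are left out. The arrays with high Xist gave 0 and 0 member calls, and 14 higher and 90 lower over all 30978 probes. Over all probes the calls were 2387 higher and 4787 lower, against 3605 and 3842 with quantile normalization, 2329 and 12043 with normexp, 5859 and 8684 with normexp centred, 159 and 91 with slide fixed and 1341 and 1563 without NC 1, NC 2 and NC 4; a random slide block had a correlation of -0.06. Signs turned for Grin2b A_52_P367017 (-0.31 normexp, -0.15 high Xist, -0.051 without NC 3, -0.041 without NC 5, -0.028 without HE 5, up to 0.19 without NC 1), Grin2b A_51_P229869 (-0.075 high Xist), Grin2d (-0.32 normexp), Grin3a A_52_P531731 (0.31 normexp centred, 0.0016 without NC 5), Grin2a A_52_P62744 (0.25 in male-matching arrays) and Grin2a minus Grin2b (0.063 with the other Grin2a probe; -1.0 with exact p = 0.0952 without NC 1, NC 2 and NC 4, the smallest that 5 against 2 arrays can give; -1.01 to -0.60 leaving out 1 array). Replicate numbers did not pair the arrays (r of same-numbered deviations -0.07, -0.02, 0.15, 0.11 and -0.04, own number best for 1 of 5); with the replicate block there was 1 member probe higher and 1 lower, 1592 and 4205 calls over all probes, and -0.87 for Grin2a minus Grin2b (exact sign-flip p = 0.0625, the smallest possible with 5 pairs). In the gene lists, the high-Xist arrays gave 1 lower gene for glutamate supply and 0 elsewhere. With slide fixed there was 1 higher and 0 lower for scaffold, co-agonist and glutamate genes, and 0 kinases and partners. The calls over all 20066 genes moved as well, from 1301 higher and 2789 lower in the main fit. They were 1788 and 7093 with normexp, 4151 and 5188 with normexp centred, and 1900 and 2400 with quantile values. Without NC 1, NC 2 and NC 4 they were 823 and 1098, and with slide fixed 114 and 91. Leaving out 1 array gave 566 to 1411 higher and 1414 to 2818 lower. Scaffold genes higher and lower were 18 and 0 with normexp centred, 12 and 0 with normexp and 5 and 0 without NC 1, NC 2 and NC 4; leaving out 1 array gave 3 to 12 and 0 to 1. Kinases higher were 14 with normexp and 22 with normexp centred, 3 to 12 leaving out 1 array, and 1 was lower (0 to 1 leaving out 1 array) with quantile values, the strict filter, the robust prior or the Xist covariate. Co-agonist genes higher were 2 with the strict filter, the robust prior, the Xist covariate or normexp centred (then 2 lower), 0 with the replicate block, and 0 to 1 higher and 4 to 5 lower leaving out 1 array. Glutamate genes higher were 4 and 5 with the normexp settings, 3 with the robust prior, 2 with the Xist covariate, 0 with quantile values, the value table, no filter, the replicate block or without NC 1, NC 2 and NC 4, and 0 to 2 leaving out 1 array (2 lower). Partners higher were 5 and 9 with the normexp settings and 2 with the random slide block, the replicate block, the robust prior or without NC 1, NC 2 and NC 4, lower 0 with quantile values, the value table, no filter, the replicate block or without NC 1, NC 2 and NC 4, and 0 to 2 each leaving out 1 array. The causes were not tested. Dim probes, such as those of Grin3a, are limited by signal over background.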
